A study of Mus musculus with 6 samples.

Results

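Group 2 innate lymphoid cells (ILC2s) carry costimulatory receptors that are best known from T cells. The expression of 10 such genes was followed in sorted mouse lung ILC2s with and without cannabinoid receptor 2 (CB2, encoded by Cnr2). The 10 genes were chosen by name: Icos and Cd28 of the CD28 family, the TNF receptor superfamily genes Tnfrsf4 (OX40), Tnfrsf9 (4-1BB), Tnfrsf18 (GITR) and Tnfrsf25 (DR3), and the TNF superfamily ligands Tnfsf8 (CD30L), Tnfsf11 (RANKL), Tnfsf14 (LIGHT) and Tnfsf10 (TRAIL). All 10 were among the 18478 genes listed in the deposited count table, and all 10 passed the filter on low counts that left 14084 genes for testing. The series holds 3 WT and 3 CB2 KO samples. Mice of both groups were BALB/c animals of 6 weeks, and both were given IL-33 into the nose, 3 doses of 1 µg. The sorted cells of both groups were then cultured for 24 h in IL-2 and IL-7, each at 10 ng/mL, so every value below is from ILC2s after IL-33 and culture. The labels do not say how the Cnr2 allele was made, whether mice were pooled, or whether the 3 samples of a group came from separate mice. If they did not, the spread behind each p-value is a technical one.

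CD28 family receptors bind B7 family ligands on other cells and signal through phosphoinositide 3-kinase. TNF receptor superfamily members bind trimeric TNF ligands, and most of the receptors described here recruit TRAF adapter proteins, which lead to NF-kappaB and MAP kinase signalling. In ILC2s, ICOS and its ligand support survival and cytokine output, GITR and DR3 act as costimulators beside IL-33, and OX40 ligand on ILC2s engages OX40 on T cells.

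Library totals lay between 17141698 and 21621008 estimated counts. Levels are given as CPM, counts scaled to library size with TMM factors. By counting error alone, a count of 0 allows a level of up to 0.14 to 0.174 CPM (3 counts). Among genes of low to middling mean count, however, 13.2% to 30.3% had 0 counts in a given library. A count of 0 therefore sets no firm limit on the level. Gata3, the transcription factor that defines ILC2s, stood at 1057 ± 55.2 CPM in WT, against 964 ± 28.2 CPM in CB2 KO (SD, n = 3 each). Cnr2 was at 9.32, 17.4 and 15.8 CPM in WT replicates 1 to 3 and at 9.24, 1.6 and 3.84 CPM in the libraries labelled CB2 KO replicates 1 to 3. For the targeted gene, the library labelled CB2 KO replicate 1 was thus level with the lowest WT library, against its label. Which part of Cnr2 was removed is not stated in the labels, so whether the counts cover it is unknown. The same library stood apart on the first principal component, which held 37.6% of the variance. It also had the largest share of such 0 counts (30.3%) and the fewest genes with a count (15021, against 15650 to 16526 in the others). Every direction given for CB2 KO below includes that library unless stated.

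Between CB2 KO and WT, Tnfrsf4 and Icos had the smallest p-values of the 10 genes. Mean Tnfrsf4 was 2.16 times the WT level in CB2 KO and mean Icos was 22% below it. Neither passed edgeR's quasi-likelihood test after Benjamini-Hochberg adjustment over all 14084 genes: 0 of 10 genes were called higher and 0 lower, against 0.0426% and 0.0639% of all genes tested (0.107% in either direction). At an unadjusted p below 0.05, edgeR gave 1 gene higher (Tnfrsf4) and 1 lower (Icos), against 4.33% and 4.27% of all genes (8.6% in either direction). DESeq2, on the same counts, called the same 1 gene higher and 1 lower at an adjusted p below 0.05, against 1.19% and 1.39% of all genes (2.58% in either direction). The log2 difference was positive for 8 of the 10 genes and negative for 2, with a median of 0.24, whereas 7037 of the 14084 genes tested were positive, with a median of −0.0003.

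The CB2 KO libraries lay wholly above the WT libraries for 2 genes (Tnfrsf4 and Tnfrsf25), where 6.91% of all genes did so, and wholly below for 1 gene (Icos), where 7.2% of all genes did. With the library labelled CB2 KO replicate 1 left out, the groups separated upward for 7 genes and downward for 2, against 12.2% and 11.9% of all genes. Some margins were narrow: CB2 KO replicate 2 was at 78.0 CPM for Tnfsf8 and 33.1 CPM for Tnfsf10. The highest WT libraries were at 77.8 and 32.8 CPM. In the normalized signal deposited by the authors these genes overlapped (67.4 against 68.4 for Tnfsf8, 28.7 against 28.9 for Tnfsf10). Tnfrsf18 and Tnfrsf9 were also close, with CB2 KO replicate 3 at 465 and 121 CPM. The highest WT library, replicate 3, was at 462 and 118 CPM for these genes, which stayed narrowly apart in the deposited signal. The library labelled CB2 KO replicate 1 was outside the range of the other 5 libraries for 4 of the 10 genes, high for Cd28 and Tnfsf14 and low for Tnfsf11 and Tnfsf10. Over all genes tested it was outside that range for 47.4%, where each other library was so for 24.4% to 34.7%.

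**Figure D1:**
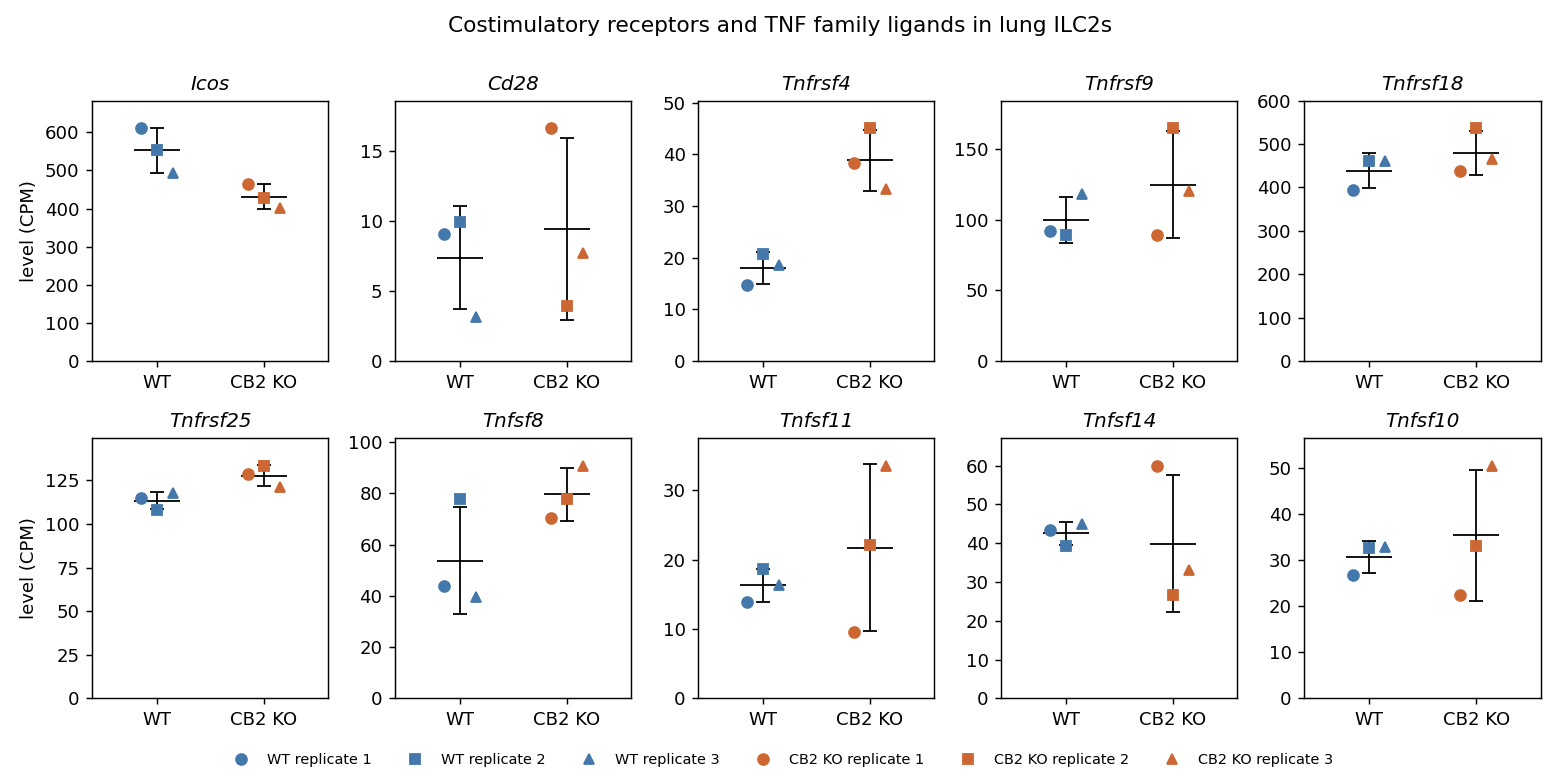
Level of each of the 10 genes in each library, in CPM, with WT and CB2 KO (3 libraries each) side by side; points are libraries, and lines and bars are group means with SD. All 3 CB2 KO libraries lie above all 3 WT libraries for Tnfrsf4 and Tnfrsf25 and below them for Icos.

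Levels were compared between genes as CPM per kilobase of merged exons, over all 6 libraries. GITR was the most abundant of the 10 transcripts, with a mean of 301 CPM per kilobase and a range of 258 to 352. ICOS followed at 143 (117 to 178), DR3 at 52.9 (47.4 to 58.5) and 4-1BB at 41.2 (32.7 to 60.5). LIGHT at 22.3, OX40 at 20.8 and CD30L at 17.5 CPM per kilobase were intermediate. RANKL at 8.50, TRAIL at 6.28 and CD28 at 1.37 CPM per kilobase were the lowest, and the span from Tnfrsf18 to Cd28 was 220-fold. The receptors thus held the top 4 places and also the last.

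The ranges over the 6 libraries did not overlap between the neighbours Tnfrsf18 and Icos, Icos and Tnfrsf25, Tnfrsf9 and Tnfsf14, and Tnfsf10 and Cd28. They overlapped for the other 5 neighbouring pairs, although Tnfsf8 was above Tnfsf11 within each of the 6 libraries. Tnfsf14 and Tnfrsf4 exchanged places when length was taken from the longest transcript. Within WT alone, Tnfrsf4 was at 13.2 ± 2.24 CPM per kilobase, and within CB2 KO at 28.5 ± 4.32 (SD, n = 3 each).

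**Figure D2:**
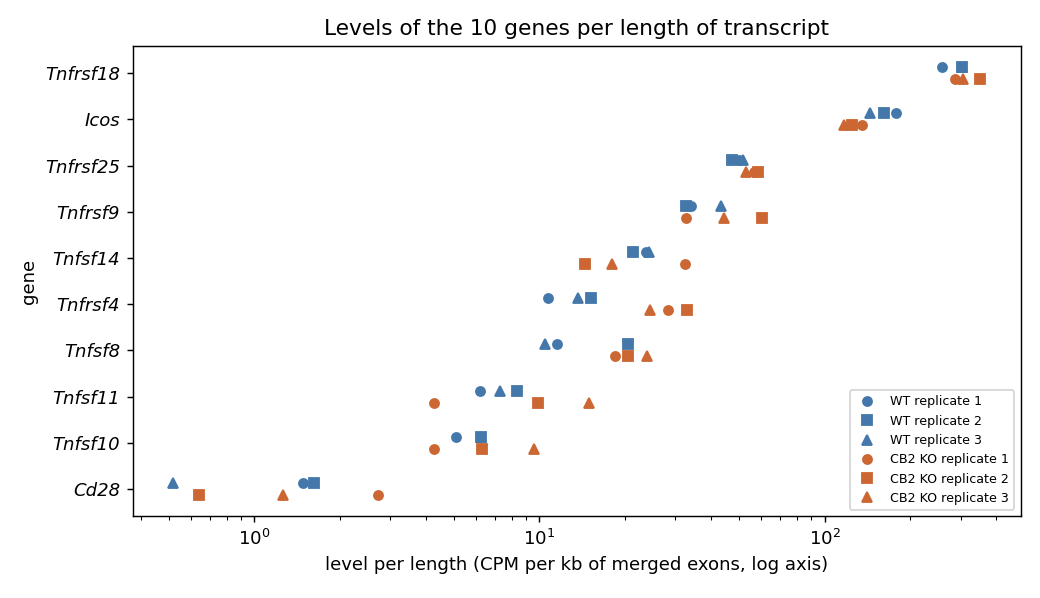
Level of each gene in CPM per kilobase of merged exons on a log axis, with a point for each of the 6 libraries and the genes in order of their mean. Tnfrsf18 is highest at 301 and Cd28 lowest at 1.37.

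Icos, which encodes the inducible costimulator that binds ICOS ligand, lies on chromosome 1 at 60977927 to 61000320 of GRCm38, on the plus strand. It stood at 610.1, 554 and 494 CPM in WT replicates 1 to 3 and at 465, 428 and 400.3 CPM in CB2 KO replicates 1 to 3. Every CB2 KO library was below every WT library, with means of 552 ± 58.3 and 431 ± 32.4 CPM (SD, n = 3 each). The log2 difference was −0.36 (SE 0.10, 95% interval −0.58 to −0.13), with an edgeR adjusted p of 0.383 and a DESeq2 adjusted p of 0.0191. Leaving out each library in turn moved it between −0.43 and −0.28. Another annotated gene, Gm37039, overlaps Icos on the same strand, so their reads may not be told apart. Gm37039 had 0 to 62 counts per library, against 6886 to 13096 for Icos. Because bulk RNA was measured, fewer cells of a type and less RNA per cell cannot be told apart, for this gene and all those below. Set against Gata3 within each library, Icos counts were 61.4%, 51.1% and 45.1% of Gata3 counts in WT and 47.1%, 45.9% and 41.2% in CB2 KO. On the ratio to Gata3 the groups overlapped, with an exact two-sided permutation p of 0.3, where 3 against 3 samples cannot go below 0.1. Markers of ILC2s themselves were read beside Icos: 7 of 10 had a negative log2 difference (median −0.17), and 5 lay wholly lower in CB2 KO (Gata3, Il7r, Il2ra, Thy1 and Klrg1), where 7.2% of all genes did so. Klrg1, an inhibitory receptor, was at 156 ± 13.8 CPM in WT, against 114 ± 17.1 CPM in CB2 KO (edgeR adjusted p = 0.45), and Il5 was wholly higher. The part of these marker differences in the Icos value was not tested.

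Cd28, the founding costimulator of the family, lies on chromosome 1 at 60716800 to 60773359 on the same strand as Icos, 204567 bases before it. It was a low transcript here, at 9.08, 9.90 and 3.17 CPM in WT, against 16.6, 3.92 and 7.73 CPM in CB2 KO. The groups overlapped, the highest and the next to lowest values both being CB2 KO libraries. The log2 difference of 0.31 (SE 0.62, 95% interval −1.16 to 1.77, edgeR adjusted p = 0.929) was −0.43, of the opposite sign, once the library labelled CB2 KO replicate 1 was left out. The interval spans differences of either sign, so no narrow limit on a Cd28 difference could be set.

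Of the 4 TNF receptor genes, all of which lie on chromosome 4, the start regions of Tnfrsf4, Tnfrsf18 and Tnfrsf9 are shown. Tnfrsf4 and Tnfrsf18 are neighbours with unlike differences, and Tnfrsf9 had matches to the most kinds of motif. Each sequence is 300 bases from RefSeq on GRCm38.p6, plus strand, from 250 bases before a transcript start to 50 after it. The windows are chr4:156013445-156013744 for Tnfrsf4, chr4:156026072-156026371 for Tnfrsf18, and chr4:150927749-150928048 for the second of the 2 Tnfrsf9 starts. Capitals mark matches, on either strand, to the NF-kappaB consensus, the AP-1 motif TGANTCA, the STAT motif TTCNNNGAA or the GATA motif AGATAA.
Tnfrsf4: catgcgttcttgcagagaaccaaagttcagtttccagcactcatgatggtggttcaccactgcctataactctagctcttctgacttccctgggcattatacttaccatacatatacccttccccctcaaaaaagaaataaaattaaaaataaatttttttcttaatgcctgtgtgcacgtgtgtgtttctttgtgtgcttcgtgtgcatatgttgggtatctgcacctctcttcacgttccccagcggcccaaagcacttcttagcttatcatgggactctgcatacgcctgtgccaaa
Tnfrsf18: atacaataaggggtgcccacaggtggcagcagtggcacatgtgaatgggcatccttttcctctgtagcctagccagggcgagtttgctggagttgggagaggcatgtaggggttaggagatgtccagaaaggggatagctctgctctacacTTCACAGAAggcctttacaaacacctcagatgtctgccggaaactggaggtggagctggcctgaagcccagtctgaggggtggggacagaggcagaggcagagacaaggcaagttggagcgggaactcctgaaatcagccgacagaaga
Tnfrsf9: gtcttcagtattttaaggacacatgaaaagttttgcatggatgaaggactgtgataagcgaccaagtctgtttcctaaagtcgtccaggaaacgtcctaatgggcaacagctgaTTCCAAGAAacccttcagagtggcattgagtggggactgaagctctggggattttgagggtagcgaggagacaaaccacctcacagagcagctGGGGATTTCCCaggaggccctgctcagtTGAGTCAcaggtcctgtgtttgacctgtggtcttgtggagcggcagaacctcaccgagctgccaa
RefSeq windows were matched for 8 of the 10 genes (10 windows), with none for Icos or Cd28. The Tnfrsf4 window, which ends before the deposited start of the gene, held no match to any of these motifs. Tnfrsf18 held a STAT match that began 99 bases before the RefSeq start of its window, but after the deposited start of the gene. The Tnfrsf9 window shown also lies within the deposited bounds of its gene. Tnfrsf9 held overlapping NF-kappaB matches from 43 and 42 bases before the start, the latter on both strands, an AP-1 match from 15 bases and a STAT match from 136 bases before it. Over all 32851 windows of the same length, 8.46% held an NF-kappaB match, 7.81% an AP-1 match, 8.3% a STAT match and 11.2% a GATA match. Among the 10 windows, NF-kappaB matches were in 2 (Tnfrsf9 and Tnfrsf25), AP-1 matches in 2 (Tnfrsf9 and Tnfsf14), STAT matches in 3 (Tnfrsf9, Tnfrsf18 and Tnfrsf25) and GATA matches in 0. The other Tnfrsf9 window held none. These are matches of letters only.

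Tnfrsf4 encodes OX40, the receptor of OX40 ligand, and lies on chromosome 4 at 156013843 to 156016612, plus strand. It stood at 14.7, 20.7 and 18.7 CPM in WT, against 38.4, 45.0 and 33.3 CPM in CB2 KO. The lowest CB2 KO library was above the highest WT library, and the library labelled CB2 KO replicate 1 lay between the other CB2 KO libraries. Means were 18.0 ± 3.06 and 38.9 ± 5.89 CPM (SD, n = 3 each), a log2 difference of 1.13 (SE 0.24, 95% interval 0.56 to 1.70, that is 1.47 to 3.25-fold). The unadjusted edgeR p was 0.00208 and the adjusted p 0.275, whereas the DESeq2 adjusted p was 0.000169. Over 15 alternatives the difference kept its sign in 15 and passed the threshold in 1 (DESeq2). As the groups did not overlap, leaving out 1 library could hardly reverse that sign. Without each library in turn the difference was 0.99 to 1.25, with edgeR adjusted p-values of 0.426 to 0.595.

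Tnfrsf18 encodes GITR and lies on chromosome 4 at 156026164 to 156028895, 9551 bases beyond Tnfrsf4 on the same strand. Its levels were 393, 462 and 462 CPM in WT, against 438, 536 and 465 CPM in CB2 KO, so that the groups overlapped. Its log2 difference was 0.13 (SE 0.10, 95% interval −0.11 to 0.37, edgeR adjusted p = 0.777). As a share of Tnfrsf18 counts in the same library, Tnfrsf4 was at 3.73%, 4.48% and 4.05% in WT and at 8.76%, 8.40% and 7.15% in CB2 KO. This ratio of the neighbouring receptors did not overlap between groups and differed by 0.99 on the log2 scale, with an exact two-sided permutation p of 0.1, the smallest that 3 against 3 allows. Built from the same counts as the levels above, it gives no separate support to the Tnfrsf4 difference. An antisense gene, Gm16008, overlaps Tnfrsf18, and no source used here says whether counting used strand, so their reads may not be told apart. Gm16008 had 53 to 179 counts per library, against 8002 to 11355 for Tnfrsf18.

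Tnfrsf9 encodes 4-1BB, a receptor induced on activated lymphocytes, and lies on chromosome 4 at 150914562 to 150946102, plus strand. It was at 92.2, 88.9 and 118 CPM in WT, against 89.2, 165 and 121 CPM in CB2 KO. The library labelled CB2 KO replicate 1 lay among the WT values, and the other CB2 KO libraries were above them. For Tnfrsf9 the log2 difference was 0.34 (SE 0.24, 95% interval −0.23 to 0.90, edgeR adjusted p = 0.755), and it was 0.54 without that library (edgeR adjusted p = 0.57) and 0.07 without CB2 KO replicate 2 (edgeR adjusted p = 0.954). Camta1 overlaps Tnfrsf9 on the other strand, so the same limit on strand holds. Camta1 had 137 to 480 counts per library, against 1795 to 3488 for Tnfrsf9.

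Tnfrsf25 encodes DR3, the death-domain receptor of TL1A, and lies on chromosome 4 at 152115934 to 152120119, plus strand. Relative to its mean it had the narrowest spread of the 10 genes in each group, a coefficient of variation of 4.42% in WT and 4.82% in CB2 KO. Levels were 115, 108 and 118 CPM in WT, against 128, 133 and 121 CPM in CB2 KO, so that the CB2 KO libraries were all above the WT libraries, by a small margin. This made a log2 difference of 0.18 (SE 0.10, 95% interval −0.07 to 0.42, edgeR adjusted p = 0.692).

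All 4 receptor differences were positive, with a median log2 difference of 0.26. Cnr2 itself lies on chromosome 4, which carries 5 of the 10 genes: Tnfrsf4 and Tnfrsf18 at 20.1 Mb from it, Tnfrsf25 at 16.2 Mb, Tnfrsf9 at 15 Mb and Tnfsf8 at 72.0 Mb. Of the 874 chromosome 4 genes tested, 7 were called by edgeR (0.801%), against 8 of 13210 genes elsewhere (0.0606%). The part of this location in the receptor values was not tested.

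**Figure D3:**
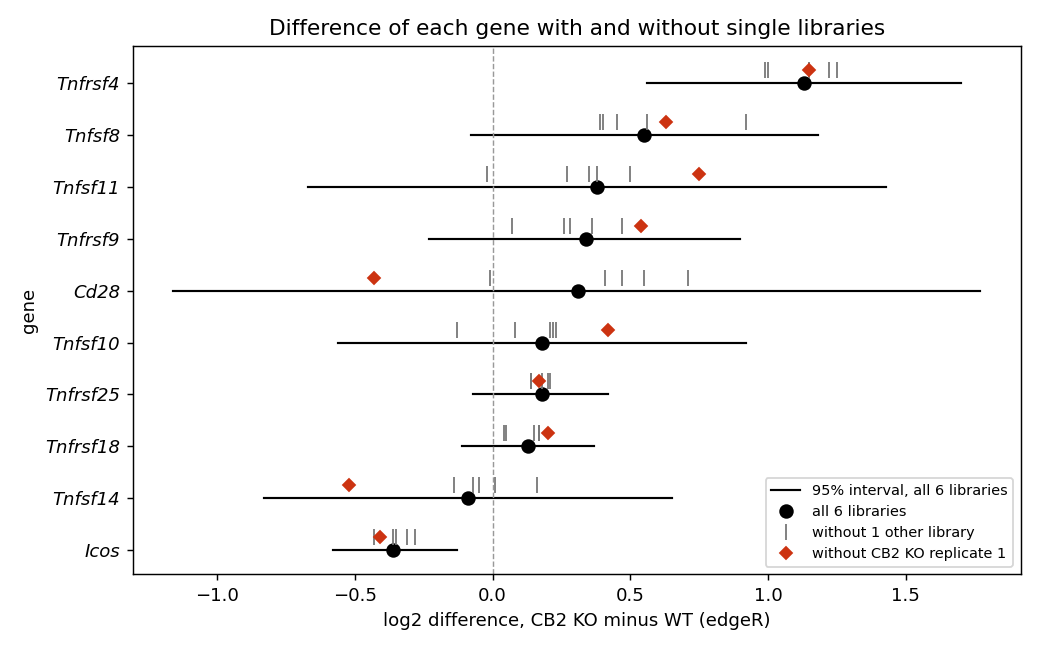
Log2 difference, CB2 KO minus WT, for each gene with its 95% interval (black), without the library labelled CB2 KO replicate 1 (red diamonds) and without each other library (grey ticks). The intervals of Tnfrsf4 (0.56 to 1.70) and Icos (−0.58 to −0.13) exclude 0 before adjustment over all genes, and the other 8 include it.

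Among the 4 ligand genes, Tnfsf11, Tnfsf14 and Tnfsf10 varied more between CB2 KO libraries than between WT libraries, with coefficients of variation of 40.0% to 55.2% against 6.90% to 14.7%. Tnfsf8 encodes CD30 ligand, on chromosome 4 at 63831308 to 63861347, minus strand. It was at 43.7, 77.8 and 39.7 CPM in WT, against 70.3, 78.0 and 90.8 CPM in CB2 KO. WT replicate 2 reached the CB2 KO range, so the groups overlapped. Tnfsf8 had a log2 difference of 0.55 (SE 0.27, 95% interval −0.08 to 1.18), the largest of the 4 ligands, with an edgeR adjusted p of 0.631. It ran from 0.39 to 0.92 as each library was left out.

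Tnfsf11 encodes RANKL, the ligand of RANK, on chromosome 14 at 78277445 to 78308043, minus strand. It was at 13.9, 18.7 and 16.3 CPM in WT, against 9.54, 22.1 and 33.5 CPM in CB2 KO. The CB2 KO libraries held both the lowest and the highest value of the 6. The log2 difference was 0.38 (SE 0.45, 95% interval −0.67 to 1.43, edgeR adjusted p = 0.869), and leaving out the library labelled CB2 KO replicate 1 gave 0.75, whereas leaving out CB2 KO replicate 3 gave −0.02.

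Tnfsf14 encodes LIGHT, a ligand of HVEM and of the lymphotoxin beta receptor, on chromosome 17 at 57189492 to 57194177, minus strand. It was at 43.5, 39.3 and 44.9 CPM in WT, against 60.0, 26.6 and 33.1 CPM in CB2 KO. The library labelled CB2 KO replicate 1 was the highest of all 6 and the other CB2 KO libraries were the lowest. Over all 6 libraries the log2 difference was −0.09 (SE 0.31, 95% interval −0.83 to 0.65, edgeR adjusted p = 0.963), or −0.52 without that library (edgeR adjusted p = 0.612).

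Tnfsf10 encodes TRAIL, a ligand of death receptors, on chromosome 3 at 27317028 to 27342427, plus strand. It was at 26.7, 32.7 and 32.8 CPM in WT, against 22.5, 33.1 and 50.5 CPM in CB2 KO, so that the groups overlapped. As for Tnfsf11, the library labelled CB2 KO replicate 1 was lowest and CB2 KO replicate 3 highest. The log2 difference was 0.18 (SE 0.31, 95% interval −0.56 to 0.92, edgeR adjusted p = 0.918), and it was 0.42 without the former library and −0.13 without the latter. For these 4 ligands the median log2 difference was 0.28, with 3 of 4 positive.

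Ligands and receptors that pair with the 10 genes were read from the same table. Of these, Tnfsf4, Tnfrsf11a, Tnfrsf8, Icosl and Cd80 were also among the 3 genes of smallest p in their pathway lists and so were picked by their values, whereas the remaining partners were named as partners alone. Tnfsf4, the OX40 ligand, was at 77.2, 94.1 and 109 CPM in WT, against 137, 132 and 184 CPM in CB2 KO. As for its receptor Tnfrsf4, each CB2 KO library was above each WT library. Means were 93.5 ± 16.0 and 151 ± 29.0 CPM (SD, n = 3 each), a log2 difference of 0.69 (SE 0.19, 95% interval 0.25 to 1.13), with an edgeR adjusted p of 0.386 and a DESeq2 adjusted p of 0.00776. Tnfrsf4 counts were 19.0%, 22% and 17.1% of Tnfsf4 counts in WT and 28.0%, 34.2% and 18.0% in CB2 KO, which overlapped (exact two-sided permutation p = 0.3).

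Markers of other cell types were read beside these values. The 7 macrophage and dendritic cell markers listed in the table, of 9 sought, all had a higher mean in CB2 KO, with a sum of 12.1 to 59.2 CPM in WT, against 152 to 177 CPM in CB2 KO (Adgre1 and Marco were not listed). Chil3 held most of that sum in each CB2 KO library (108 to 143 CPM) and in WT replicate 3 (47.5 CPM). In WT replicates 1 and 2 it was at 0.559 and 8.68 CPM, of sums of 12.1 and 20.0 CPM. Chil3, Lyz2 and Itgax separated without overlap, Cd68 was at 8.71 ± 1.96 and 9.63 ± 3.09 CPM, and Mrc1 and Flt3 had counts in 1 library each. All 6 mast cell and basophil markers also had a higher mean in CB2 KO, with sums of 17.5 to 28.3 CPM in WT, against 41.4 to 86.9 CPM in CB2 KO. Of these 6, 3 separated without overlap (Tpsb2, Mcpt8 and Fcer1a), and Ms4a2 had counts in CB2 KO replicate 3 only. Lyz2 of the first list was at 1.64 ± 0.786 CPM in WT, against 17.3 ± 5.98 CPM in CB2 KO (edgeR adjusted p = 0.0693), and Tpsb2 of the second at 2.29 ± 0.937 and 23.3 ± 8.41 CPM (edgeR adjusted p = 0.086). Dendritic cells are known to carry OX40 ligand and ICOS ligand, and the part of such cells in the Tnfsf4, Icosl and Tnfrsf4 values was not tested. T cells are the classic carriers of OX40, ICOS and CD28, and 7 of 10 T cell markers were listed (not Cd4, Cd8a or Cd5), 6 of them with a higher mean in CB2 KO. They summed to 189 to 199.9 CPM in WT, against 199 to 221 CPM in CB2 KO. Cd3g was at 14.0 ± 3.93 CPM in WT, against 26.1 ± 2.53 CPM in CB2 KO, and Trbc1 at 44.3 ± 0.714 and 59.8 ± 14.5 CPM, both without overlap. Trbc2 was at 135 ± 5.66 and 119 ± 8.86 CPM, Cd3e at 0 to 3.18 CPM and Trac at 0 to 2.22 CPM over the 6 libraries. The part of T cells in the values of the 10 genes was not tested.

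Among the other partners, Icosl was at 26.8 ± 2.85 CPM in WT, against 37.4 ± 1.71 in CB2 KO without overlap, with a log2 difference of 0.48 (SE 0.20, edgeR adjusted p = 0.567). Tnfrsf8, the CD30 receptor of Tnfsf8, was at 175 ± 3.44 and 213 ± 24.3 CPM, also without overlap (log2 difference 0.28, edgeR adjusted p = 0.52). Tnfrsf8 lies on chromosome 4, at 9.3 Mb from Cnr2, and the part of this location in its value was not tested. Tnfrsf11a, the RANK receptor of Tnfsf11, was at 31.3 ± 10.8 and 52.8 ± 11.7 CPM and overlapped (log2 difference 0.79, edgeR adjusted p = 0.509).

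Of the partners that remain, Tnfrsf10b, a TRAIL receptor, was at 15.7 ± 5.50 CPM in WT, against 23.5 ± 12 CPM in CB2 KO, with overlap (log2 difference 0.65, edgeR adjusted p = 0.744). Tnfrsf14, the HVEM receptor of LIGHT, was at 0.503 ± 0.0135 CPM in WT, against 0.679 ± 0.261 CPM in CB2 KO, and Ltbr, the other LIGHT receptor, had 0 counts in 3 libraries. Tnfsf15 (TL1A, the DR3 ligand) had 0 counts in 5 libraries and 24 in CB2 KO replicate 3, and was not tested. Tnfsf9, the 4-1BB ligand, was at 21.0 ± 8.52 and 16.6 ± 7.48 CPM. Cd80, which binds CD28, was at 4.20 ± 1.09 and 2.21 ± 1.04 CPM. Cd86 and Tnfsf18, the ligands of CD28 and GITR, were not listed in the table.

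**Figure D4:**
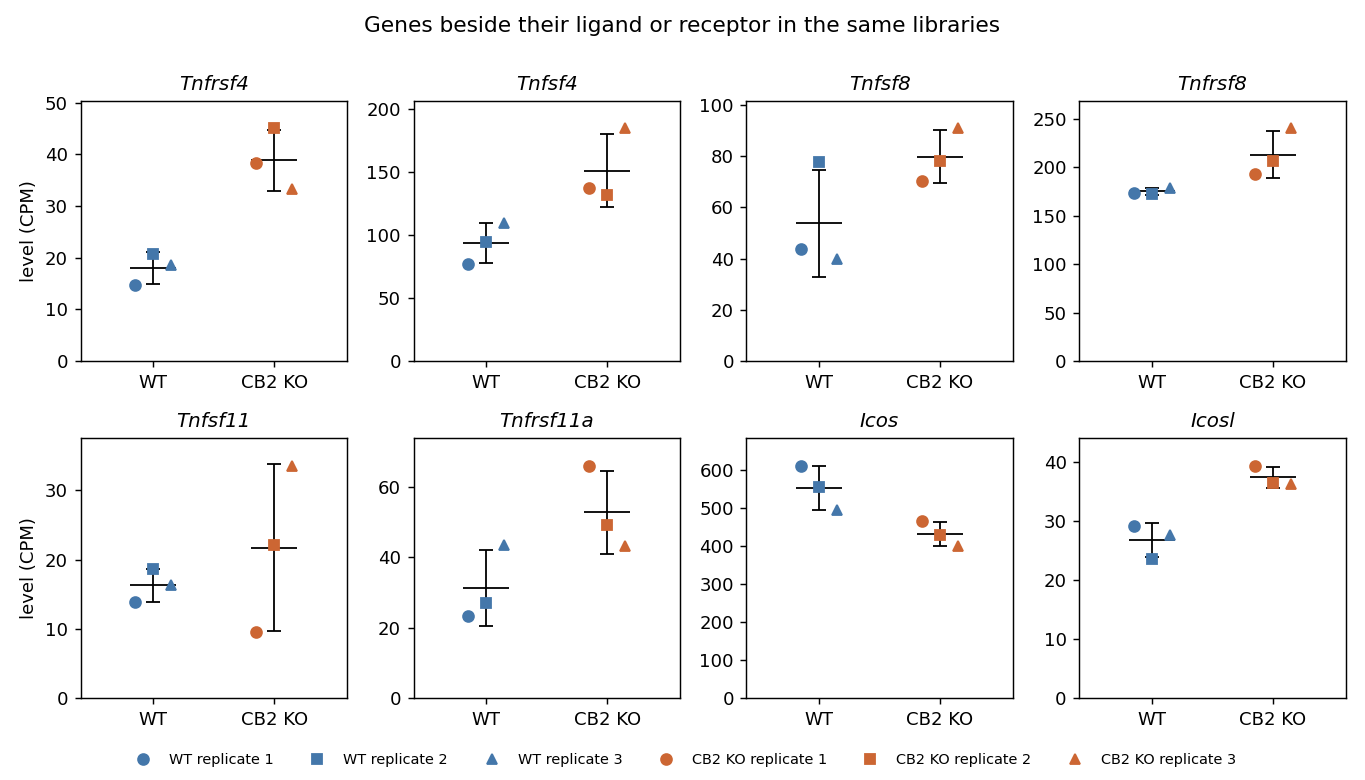
Level of Tnfrsf4, Tnfsf8, Tnfsf11 and Icos, each beside its ligand or receptor, in each library, in CPM from 0, for WT and CB2 KO (3 libraries each), with points for libraries and lines and bars for means with SD. Tnfsf4, Icosl and Tnfrsf8 are higher in every CB2 KO library than in every WT library, and Tnfrsf11a overlaps.

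The rest of the pathway was read from 6 lists of 87 genes, of which 76 were in the table and 67 were tested. By edgeR, 0 of the 67 were called in either direction (0.107% of all genes), and at an unadjusted p below 0.05 it gave 7 higher and 1 lower, against 4.33% and 4.27% of all genes. DESeq2 called 3 higher (Tnfsf4, Lta and Traf4) and 0 lower, against 1.19% and 1.39% of all genes. The CB2 KO libraries lay wholly above the WT libraries for 8 of the 67, against 6.91% of all genes. They lay wholly below for 5, with Relt, Grb2 and Lck among them, against 7.2% of all genes. The median log2 difference was 0.17, with 43 positive and 24 negative.

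Of the other TNF ligands, 6 of 7 tested were positive (median 0.38). Lta, which encodes lymphotoxin alpha, was at 355, 337 and 303 CPM in WT, against 377, 491 and 426 CPM in CB2 KO, a log2 difference of 0.38 (SE 0.11, edgeR adjusted p = 0.446, DESeq2 adjusted p = 0.0243). Tnf was at 22.5, 22.9 and 23.0 CPM in WT, against 53.7, 33.3 and 27.0 CPM in CB2 KO, with its highest value in the library labelled CB2 KO replicate 1 (edgeR adjusted p = 0.571). Both genes had groups that did not overlap. Among the other TNF receptors, 11 of 16 were positive (median 0.35), and Relt was at 11 ± 7.66 CPM in WT, against 4.11 ± 1.43 in CB2 KO (log2 difference −1.47, edgeR adjusted p = 0.595). WT replicate 1, at 19.8 CPM, was the highest Relt library, and without it the log2 difference was −0.68.

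Downstream of the receptors, 11 of 17 TRAF and adapter genes were positive, with a median of 0.11. Traf4, a TRAF family adapter, was at 11.2, 13.7 and 12.9 CPM in WT, against 28.8, 24.9 and 22.6 CPM in CB2 KO. These groups did not overlap, and the log2 difference was 1.02 (SE 0.26, edgeR adjusted p = 0.351, DESeq2 adjusted p = 0.000573). Birc2, which encodes the ubiquitin ligase cIAP1, was at 30.5 ± 11.2 and 48.3 ± 4.97 CPM, and Tank, a TRAF-binding protein gene, at 41.3 ± 12.1 and 57.1 ± 4.75 CPM.

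The 13 genes of CD28 and ICOS proximal signalling had a median of −0.02, with 5 positive and 8 negative. Grb2, an adapter that binds the CD28 tail, was at 266 ± 10.2 CPM in WT, against 223 ± 21.4 in CB2 KO without overlap (log2 difference −0.26, edgeR adjusted p = 0.502). Pik3cd, a catalytic subunit of phosphoinositide 3-kinase, was at 308 ± 50.2 and 276 ± 31.6 CPM, and Lck at 9.37 ± 1.26 and 4.12 ± 3.64 CPM. Lck had 0 counts in the library labelled CB2 KO replicate 1. Its log2 difference was −1.18 with that library and −0.57 without it. Of the other CD28 and B7 family genes, 5 of 7 were positive (median 0.24), and Vsir was at 7.23 ± 4.64 and 2.93 ± 3.06 CPM. Vsir also had 0 counts in the library labelled CB2 KO replicate 1. Its log2 difference was −1.43 with that library and −0.82 without it. Of the genes listed as RNA-binding repressors of costimulatory transcripts, 5 of 7 were positive (median 0.22). Rc3h1, which encodes Roquin-1, was at 27.2 ± 2.93 and 31.1 ± 6.60 CPM, Rc3h2 at 19.0 ± 6.27 and 28.4 ± 14.4 CPM, and Zc3h12a, which encodes Regnase-1, at 10.4 ± 2.69 and 12.4 ± 1.94 CPM.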

How the data were processed

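RNA-seq libraries of 3 WT and 3 CB2 KO samples, each made from 10 ng of RNA per the labels' protocols, were used. Estimated counts per gene (expected counts, not whole) were deposited by the authors in a Partek table. The submitters' processing notes name CASAVA 1.8.2, STAR 3.5.3, Partek and mm10, with no order. A second table deposited by the authors holds a normalized signal with an equal 75th percentile (44.6) in every library, and it was tested with limma-trend as an alternative. Starts of the 10 genes equal those of GENCODE M21 on GRCm38.

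The estimated counts were rounded, and genes were filtered with filterByExpr (14084 of 18478 kept). Groups were compared with edgeR 4.0.16 (TMM, robust quasi-likelihood test) in R 4.3.3, with Benjamini-Hochberg adjustment over all genes tested and a threshold of 0.05. SE is the log2 difference divided by the square root of F, and intervals are 95%. The script was tested on simulated data. Alternatives were DESeq2 1.42.0, limma-voom (limma 3.58.1), other scaling, other filters, the replicate number as a block, and leaving out each library. Depth was 17141698 to 21621008 counts; the limit of 3 counts covers counting error only. No library was a copy of another (lowest chi-square per degree of freedom between libraries, 31).

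Named genes were the 10 members, Cnr2, the 3 tested genes with the smallest p in each of 6 pathway lists, any pathway gene past the threshold (0), and the markers Cd3e, Trac, Cd4, Lyz2 and Tpsb2. Partner ligands and receptors not already named were added after the files were read. Other marker genes given by name (such as Gata3, Klrg1, Cd3g and Chil3) were chosen after their values were seen. The members and lists were chosen with earlier results of these data known. Other marker lists summed to 11700 to 13104 CPM in WT and 12284 to 14662 in CB2 KO for ILC2s, 10.9 to 17.4 and 13.9 to 14.9 for B cells, 0 to 2.98 and 0 for NK cells and ILC1s, and 1.35 to 4.24 and 2.43 to 4.58 for ILC3s. Il5, at 6972 to 10015 CPM over the libraries, held most of the ILC2 sum, whereas 7 of the 10 ILC2 markers had a negative log2 difference.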

Additional observations from a re-analysis of the deposited data

How the results depend on the processing

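Tnfrsf4, Icos, Tnfrsf9, Tnfrsf18, Tnfrsf25 and Tnfsf8 kept their sign under all 15 alternatives run for each. The alternatives reuse the same libraries and give no separate support. For Tnfrsf4, Icos and Tnfrsf25, whose groups did not overlap, leaving out 1 library could hardly reverse the sign. The sign reversed for Cd28 without WT replicate 3 (−0.01) and without CB2 KO replicate 1 (−0.43), for Tnfsf11 without CB2 KO replicate 3 (−0.02), for Tnfsf14 without CB2 KO replicate 2 (0.16) or 3 (0.01), for Tnfsf10 without CB2 KO replicate 3 (−0.13), and for Tnfsf9 without WT replicate 3 (0.02) or CB2 KO replicate 1 (0.03); the cause was not tested. As libraries were left out in turn, Cd28 ran from −0.43 to 0.71, Tnfsf11 from −0.02 to 0.75, Tnfsf14 from −0.52 to 0.16, Tnfsf10 from −0.13 to 0.42 and Tnfsf9 from −0.54 to 0.03, and genes called by edgeR over the whole table from 1 to 2 higher and 2 to 6 lower. DESeq2 called 1 member higher, 1 lower, 3 pathway genes higher, and 167 genes higher and 196 lower over all genes, where edgeR called 0, 0, 0, 6 and 9. With the replicate number as a block, edgeR called 1 gene higher and 2 lower, and 0 members. Same-numbered deviations correlated at 0.07, 0.03 and 0.02, against −0.06 to 0.03 for unlike numbers. No pairing by number was seen, but 3 libraries per group cannot exclude one. The members' median log2 difference of 0.24 ran from 0.18 to 0.31. Groups that did not overlap went from 2 higher and 1 lower (6.91% and 7.2% of all genes) to 7 and 2 (12.2% and 11.9%) without CB2 KO replicate 1, an alternative chosen after seeing the data. Of the 7, Tnfsf8, Tnfsf10, Tnfrsf18 and Tnfrsf9 separated by narrow margins, and Tnfsf8 and Tnfsf10 overlapped in the deposited normalized signal.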
